A study of Mus musculus with 10 samples.

Results

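Rcn3, Fgl2, Trabd2b, Glt28d2, Art3 and Mapk12 are 6 genes of unrelated function that read higher in splenic B cells of Bcl6 transgenic mice than in those of wild-type mice. They were chosen by their log2 levels on these same arrays, for a rise in floxed or delta over wild-type arrays, so their levels in the groups are given as a description and carry no test. They make up 6 of the 19937 genes measured, through 7 of the 34760 probe sets: Trabd2b has 2 probe sets with its symbol and each of the others has 1.

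The arrays measured B220+CD22+ cells purified by FACS from the spleen of CBAxC57BL/6J mice, hybridised to Affymetrix Mouse Gene 1.0 ST arrays. Floxed arrays (3) came from Sca1-Bcl6(floxed) mice, whose transgene was built from a pLy6 (Sca1) vector and carries mouse Bcl6 followed by IRES-eGFP, with loxP sites on both sides. Delta arrays (4) came from Sca1-Bcl6(delta) mice, bred by crossing these to mb1-Cre mice, which express the recombinase in the B cell lineage, and wild-type arrays (3) came from mice without the transgene. The submitters describe 2 independent transgenic lines but not which array came from which, and the labels give no age, sex or litter and do not say that each array is a separate animal, so p-values measure the spread between these samples, which may be technical.

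As background, the 6 genes act in unrelated places. Rcn3 encodes reticulocalbin 3, an EF-hand calcium-binding protein of the endoplasmic reticulum; Fgl2 encodes a fibrinogen-like protein that exists as a membrane prothrombinase and as a form secreted by regulatory T cells; and Trabd2b encodes a membrane metalloprotease that clips Wnt ligands, as shown in frog embryos and human cells. Glt28d2 encodes a glycosyltransferase-domain protein related to Alg13, part of the enzyme that builds the lipid-linked precursor of N-glycans; Art3 encodes a GPI-anchored member of the ecto-ADP-ribosyltransferase family whose catalytic motif is not conserved; and Mapk12 encodes the stress kinase p38 gamma.

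Some facts of the whole series bear on these values. Each value is the authors' RMA intensity, given here as log2, and array medians lay between 139 and 145 on the linear scale. B cell markers were bright throughout: 11 of 12 were measured, with a mean log2 level of 12.81 to 12.94 in floxed, 12.77 to 12.86 in delta and 12.90 to 12.95 in wild-type arrays. Bcl6, the gene carried by the transgene, had log2 levels of 9.88, 9.80 and 9.96 in floxed arrays, 9.83, 9.82, 9.56 and 9.61 in delta arrays and 10.48, 9.87 and 9.80 in wild-type arrays. Which of transgene and endogenous RNA its probe set reads was not checked, since probe sequences were not used. Xist and the Y-linked genes gave a male pattern on the 3 floxed arrays and delta 1, and a female pattern on delta 2, delta 3, delta 4 and the 3 wild-type arrays, so sex pattern and genotype cannot be told apart between floxed and wild-type arrays.

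The stretch before the start site is shown for the 5 genes with an entry in the RefSeq promoter table, because these genes read higher together. Each sequence is the 250 bases before the annotated start in mouse build GRCm38.p6, read 5′ to 3′ on the gene's strand, in lower case with motif matches in capitals. Art3 has 3 annotated starts, and its second, which lies inside the gene, is shown because its match lies nearest to a start. The starts are those of RefSeq's table and need not be the outermost base of a gene: the Mapk12 stretch lies inside the span of its gene, and the Rcn3 stretch overlaps the end of its span.
Rcn3, chr7:45092214-45092463, minus strand: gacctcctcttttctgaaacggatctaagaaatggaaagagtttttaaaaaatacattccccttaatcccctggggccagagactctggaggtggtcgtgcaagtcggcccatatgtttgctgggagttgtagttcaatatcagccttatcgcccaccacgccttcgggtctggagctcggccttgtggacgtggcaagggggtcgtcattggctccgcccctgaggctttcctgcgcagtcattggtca
Fgl2, chr5:21372423-21372672, plus strand: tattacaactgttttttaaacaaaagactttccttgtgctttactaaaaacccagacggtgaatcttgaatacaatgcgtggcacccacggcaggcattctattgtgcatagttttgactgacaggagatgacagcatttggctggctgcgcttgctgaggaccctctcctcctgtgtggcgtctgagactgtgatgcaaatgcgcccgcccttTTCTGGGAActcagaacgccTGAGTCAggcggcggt
Glt28d2, chr3:85887519-85887768, minus strand: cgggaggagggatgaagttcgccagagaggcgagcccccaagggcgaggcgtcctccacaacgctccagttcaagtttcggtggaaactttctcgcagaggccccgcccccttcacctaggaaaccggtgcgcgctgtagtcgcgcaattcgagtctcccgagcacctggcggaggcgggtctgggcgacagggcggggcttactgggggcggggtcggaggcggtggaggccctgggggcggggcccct
Art3, chr5:92386637-92386886, plus strand: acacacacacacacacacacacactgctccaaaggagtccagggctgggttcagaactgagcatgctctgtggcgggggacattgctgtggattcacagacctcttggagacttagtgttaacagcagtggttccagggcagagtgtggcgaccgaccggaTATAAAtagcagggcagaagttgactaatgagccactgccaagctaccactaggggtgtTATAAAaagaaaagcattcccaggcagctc
Mapk12, chr15:89140704-89140953, minus strand: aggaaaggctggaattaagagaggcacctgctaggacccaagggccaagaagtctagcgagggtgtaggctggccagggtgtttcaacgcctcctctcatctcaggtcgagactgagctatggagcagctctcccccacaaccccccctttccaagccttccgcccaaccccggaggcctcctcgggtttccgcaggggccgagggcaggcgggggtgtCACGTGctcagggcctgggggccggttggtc
The capitals mark exact matches, on either strand, to 5 motifs: TTCNNNGAA, the inverted repeat of STAT factors, whose core the BCL6 site shares; GGTGTGA, the site of T-box factors such as T-bet; TGANTCA, the site of AP-1 factors; CACGTG, the E-box of basic helix-loop-helix factors; and TATAAA, the TATA box near which transcription often starts.

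No motif was shared by 2 of the 5 genes. With -1 the last base before the start, Fgl2 held TTCNNNGAA at -36 to -28 and TGANTCA at -16 to -10, Art3 held TATAAA at -89 to -84 and at -30 to -25 of its second start, and Mapk12 held CACGTG at -31 to -26. The first Art3 start had 3 further TATAAA matches, of which a pair overlapped, and the third had none. Over 32851 RefSeq starts, TTCNNNGAA was present before 7.0%, TGANTCA before 6.7%, CACGTG before 6.0%, TATAAA before 12.4% and GGTGTGA before 3.3%. Rcn3 and Glt28d2 held none of these letters in this window, which says nothing about any factor.

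All 6 genes lay higher on each of the 7 floxed and delta arrays than on any of the 3 wild-type arrays, an order found for 2.03% of all genes (405 of 19937). Since the genes were picked for this order, nothing is read from the share. In a bulk sort, a larger number of cells with a transcript and more RNA of it per cell cannot be told apart. Between floxed and delta arrays, the ranges of every one of the 6 genes overlapped.

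**Figure D1:**
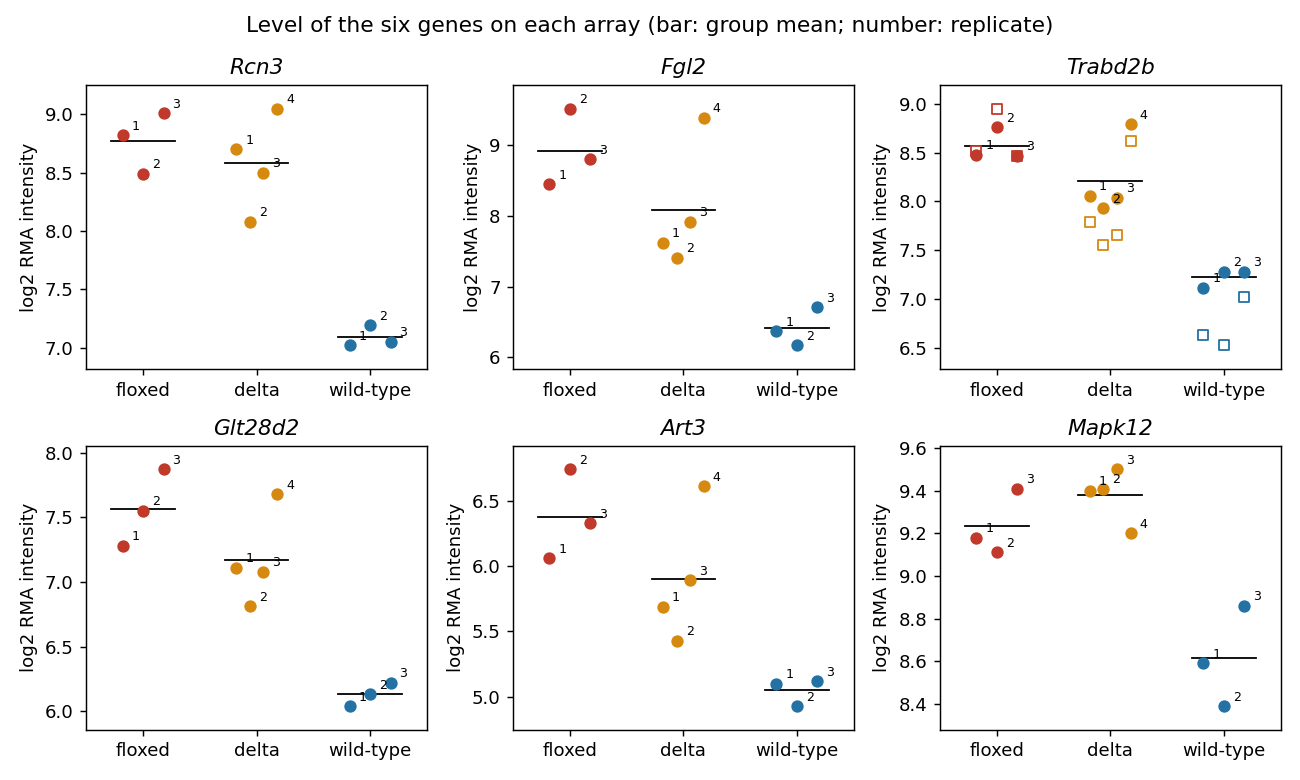
Log2 RMA intensity of each gene on every array by group; points are arrays numbered by replicate, bars are group means, and open squares in the Trabd2b panel are its second probe set. In every panel the 7 floxed and delta arrays lie above the 3 wild-type arrays, and delta 4 lies above the other delta arrays in every panel but that of Mapk12, where it is the lowest of them.

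Rcn3 (probe set 10563077, gene ID 52377, chr7:45082914-45092322) binds calcium in the lumen of the endoplasmic reticulum as one of the CREC proteins. Its log2 levels were 8.82, 8.49 and 9.01 on floxed arrays 1 to 3, 8.70, 8.08, 8.5 and 9.05 on delta arrays 1 to 4, and 7.02, 7.19 and 7.05 on wild-type arrays 1 to 3. The wild-type arrays were close together and every floxed and delta array stood well clear of them. On the linear scale, Rcn3 averaged 442 ± 78.4 in floxed (SD, n = 3), 394 ± 109 in delta (SD, n = 4) and 136 ± 8.59 in wild-type arrays (SD, n = 3). The log2 difference from wild-type was 1.69 (SE 0.20) for floxed arrays and 1.5 (SE 0.19) for delta arrays, or 3.22-fold and 2.82-fold. Among the 5 genes other than Mapk12, Rcn3 had the smallest difference of delta from floxed arrays, at -0.19 (SE 0.19).

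Fgl2 (probe set 10519983, gene ID 14190, chr5:21372673-21378386) makes the fibrinogen-like protein whose membrane form cleaves prothrombin and whose soluble form binds the inhibitory receptor Fcgr2b. Its log2 levels were 8.45, 9.52 and 8.80 on floxed arrays, 7.62, 7.41, 7.92 and 9.39 on delta arrays, and 6.37, 6.17 and 6.71 on wild-type arrays. Floxed 2 and delta 4 were the highest, and the other 3 delta arrays lay below every floxed array. Fgl2 averaged 510 ± 200 in floxed, 319 ± 235 in delta and 86.4 ± 16.4 in wild-type arrays on the linear scale (SD, n = 3, 4 and 3). Its log2 difference from wild-type was 2.51 (SE 0.43, 5.69-fold) for floxed arrays, the largest of the 6 genes, and 1.67 (SE 0.40, 3.18-fold) for delta arrays. In delta arrays it was larger than that of Rcn3 with delta 4 in and smaller without it, at 1.23 for Fgl2 against 1.34 for Rcn3. Delta arrays stood at -0.84 (SE 0.40) from floxed arrays, and without delta 4 at -1.27.

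Trabd2b (gene ID 666048, chr4:114406682-114615098), the Wnt-clipping protease, is the one gene of the 6 read by more than 1 probe set. The brighter probe set, 10507101, had log2 levels of 8.48, 8.76 and 8.47 on floxed arrays, 8.06, 7.93, 8.04 and 8.79 on delta arrays, and 7.12, 7.28 and 7.28 on wild-type arrays. The other, 10507099, had 8.52, 8.95 and 8.47 on floxed arrays, 7.79, 7.56, 7.66 and 8.62 on delta arrays, and 6.63, 6.53 and 7.02 on wild-type arrays. Both probe sets put the arrays into the same 3 levels, with delta 4 beside the floxed arrays, and their log2 levels correlated at r = 0.981 over the 10 arrays. They differed in size: floxed minus wild-type was 1.35 (SE 0.18, 2.55-fold) by the brighter and 1.92 (SE 0.25, 3.78-fold) by the other, and delta minus wild-type was 0.98 (SE 0.17, 1.97-fold) and 1.18 (SE 0.23, 2.27-fold). Linear averages by the brighter probe set were 382 ± 45.1 in floxed, 304 ± 92.4 in delta and 150 ± 9.51 in wild-type arrays (SD, n = 3, 4 and 3).

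Glt28d2 (probe set 10499108, gene ID 320302, chr3:85869846-85887518) carries the glycosyltransferase domain of Alg13. Its log2 levels were 7.28, 7.55 and 7.87 on floxed arrays, 7.11, 6.81, 7.08 and 7.68 on delta arrays, and 6.04, 6.13 and 6.22 on wild-type arrays. Again 3 delta arrays lay below every floxed array and delta 4 lay among the floxed ones. The linear averages were 192 ± 39.5 in floxed, 148 ± 39.8 in delta and 70.1 ± 4.28 in wild-type arrays (SD, n = 3, 4 and 3), with log2 differences from wild-type of 1.44 (SE 0.19, 2.70-fold) for floxed and 1.04 (SE 0.18, 2.06-fold) for delta arrays. Alg13 itself read 6.46, 6.87 and 7.15 on floxed arrays, 6.89, 6.92, 6.91 and 6.90 on delta arrays and 6.80, 7.02 and 6.82 on wild-type arrays, a floxed minus wild-type difference of -0.05 (SE 0.14, limma adjusted p = 0.905). The probe sequences were not used here, so signal that the related genes might share was not separated.

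Art3 (probe set 10523231, gene ID 109979, chr5:92331799-92414628), the membrane-anchored relative of the ADP-ribosyltransferases, had log2 levels of 6.06, 6.74 and 6.33 on floxed arrays, 5.69, 5.43, 5.89 and 6.61 on delta arrays, and 5.10, 4.93 and 5.12 on wild-type arrays. As for Fgl2, floxed 2 and delta 4 were the highest arrays and delta 2 the lowest of the floxed and delta ones. Art3 averaged 84.5 ± 20.4 in floxed, 62.9 ± 24.1 in delta and 33.2 ± 2.33 in wild-type arrays on the linear scale (SD, n = 3, 4 and 3). The log2 differences from wild-type were 1.32 (SE 0.25, 2.5-fold) for floxed and 0.85 (SE 0.23, 1.81-fold) for delta arrays. On wild-type arrays 1 to 3, of female pattern, the Y-linked genes Kdm5d, Uty and Eif2s3y read 5.33, 5.34 and 5.22, then 4.83, 4.58 and 4.71, then 3.71, 3.76 and 3.99. The wild-type levels of Art3 thus lay near background, and its fold values start from there. Other members were also low there: Fgl2 read 6.17 to 6.71 and Glt28d2 6.04 to 6.22 on wild-type arrays. Foxp3, a regulatory T cell gene, read 7.09 to 7.13 on these arrays, and Csf1r, a macrophage gene, 6.81 to 6.99. Rcn3 (7.02 to 7.19) and the brighter Trabd2b probe set (7.12 to 7.28) lay about level with Foxp3. How far the fold values of these 4 genes start from background was not tested.

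Mapk12 (probe set 10431393, gene ID 29857, chr15:89130584-89141577), the p38 gamma kinase, had another order of groups. Its log2 levels were 9.18, 9.11 and 9.41 on floxed arrays, 9.40, 9.41, 9.50 and 9.20 on delta arrays, and 8.59, 8.39 and 8.86 on wild-type arrays. Delta 1 to 3 lay about level with the highest floxed array and delta 4 was the lowest delta array, the reverse of the other 5 genes. Mapk12 averaged 605 ± 67 in floxed, 668 ± 57.7 in delta and 396 ± 65.2 in wild-type arrays on the linear scale (SD, n = 3, 4 and 3). Its log2 differences from wild-type were 0.62 (SE 0.12, 1.54-fold) for floxed arrays, the smallest of the 6 genes, and 0.77 (SE 0.11, 1.70-fold) for delta arrays, where Art3 and Trabd2b had smaller values once delta 4 was left out, and the difference of delta from floxed arrays was 0.15 (SE 0.11).

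A difference of at least 1 on the log2 scale, or 2-fold, was reached by 5 of the 6 genes in floxed against wild-type arrays, against 0.356% of all genes, and by 3 (Rcn3, Fgl2 and Glt28d2) in delta against wild-type arrays, against 0.14%. Both comparisons share the wild-type arrays. Without delta 4, delta minus wild-type was 1.34 for Rcn3, 1.23 for Fgl2, 0.78 for Trabd2b, 0.87 for Glt28d2, 0.62 for Art3 and 0.83 for Mapk12, so that Glt28d2 no longer reached 1.

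The delta arrays were placed between the groups by setting the floxed mean at 100% and the wild-type mean at 0% on the log2 scale. Delta 1, 2 and 3 lay at 95.6%, 58.8% and 83.8% for Rcn3. For Fgl2 they lay at 47.9%, 39.8% and 59.9%, and for Art3 at 48.4%, 28.6% and 63.3%. Of the 5 genes without Mapk12, Rcn3 had the highest place on each of these arrays. Trabd2b lay at 61.8%, 52.2% and 60.7% by the brighter probe set and at 55.4%, 43.8% and 48.7% by the other, and Glt28d2 at 68.6%, 47.6% and 66.3%. The order of Trabd2b against Fgl2 and Art3 changed with the array and with the probe set.

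Delta 4 lay at an end of the delta range for all 6 genes, though not always far from the rest. For Rcn3 its gap to the next delta array was 0.364 of the range, against 0.432 for delta 2 at the low end. For Mapk12 the log2 range was 0.3 in delta arrays and 0.3 in floxed arrays. Delta 4 lay at 116.7% for Rcn3, 118.4% for Fgl2, 115.9% for Trabd2b (98.5% by the other probe set), 107.9% for Glt28d2 and 117.9% for Art3. For Mapk12 the delta arrays lay at 127.4%, 129.2%, 143.4% and 94.5%. Delta 4 was the highest delta array for 5 of the 6 genes, an order found for 29.3% of all genes, and its log2 level exceeded the mean of delta 1 to 3 by 0.63 for Rcn3, 1.74 for Fgl2, 0.78 for Trabd2b, 0.68 for Glt28d2 and 0.94 for Art3, against a median of 0.01 over all genes. For Mapk12 the same difference was -0.24. On the axis of largest variation over all genes, which took 28.7% of the variance, delta 4 (6.45) and delta 1 (7.03) lay nearer to the floxed arrays (11.75 to 16.2), and delta 2 (-6.28) and delta 3 (-5.1) nearer to the wild-type arrays (-16.93 to -12.6).

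**Figure D2:**
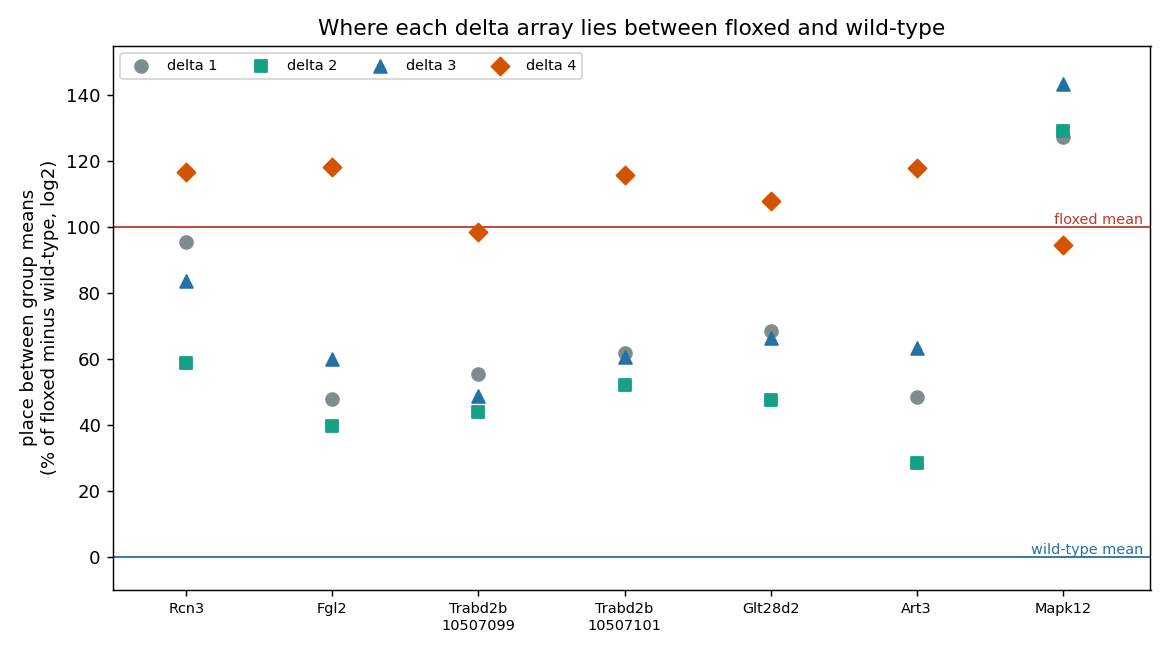
Place of each delta array between the floxed mean (100%) and the wild-type mean (0%) of log2 level, for each probe set of the 6 genes. Delta 4 lies at 98.5% to 118.4% for the 5 genes other than Mapk12, where delta 1 to 3 lie at 28.6% to 95.6%; for Mapk12 delta 1 to 3 lie above 100% and delta 4 at 94.5%.

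The choice of the genes did not use the difference in sex pattern inside the delta group, so it was tested with limma. Delta 1, of male pattern, was set against delta 2 to 4, of female pattern; the lone array was assumed to vary like the others. Of 19937 genes, 0.0351% (7) passed an adjusted p of 0.05, and none of the 6 genes did, each with a limma adjusted p of 1 and none under 0.05 before adjustment (4.23% of all genes). The log2 differences were 0.15 (95% CI -0.50 to 0.81) for Rcn3, -0.62 (-1.97 to 0.72) for Fgl2, -0.20 (-0.78 to 0.39) for Trabd2b, -0.08 (-0.71 to 0.55) for Glt28d2, -0.28 (-1.08 to 0.51) for Art3 and 0.03 (-0.37 to 0.43) for Mapk12. Without delta 4 the value for Fgl2 was -0.05. These intervals are wide, so the test does not show that the arrays are alike.

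Among arrays of female pattern alone, delta 2 to 4 lay above the 3 wild-type arrays for every gene. This follows from the order for which the genes were picked, so nothing is read from it. The log2 difference of delta 2 to 4 from wild-type arrays, which is also the value with sex pattern as a covariate, was 1.46 for Rcn3, 1.82 for Fgl2, 1.03 for Trabd2b, 1.06 for Glt28d2, 0.92 for Art3 and 0.76 for Mapk12. Floxed against wild-type has no array pair of like pattern, and its values with the covariate, which rest on delta 1 alone for the sex term, were 1.53, 3.13, 1.54, 1.51, 1.61 and 0.59 in the same order of genes.

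Deviations from group means show how the genes varied among arrays of 1 genotype, which the choice did not use. Within groups, the 10 pairs among the 5 genes without Mapk12 had Pearson's r of 0.461 to 0.982 (median 0.784), and the 5 pairs with Mapk12 had -0.511 to -0.056. Levels across all 10 arrays gave 0.859 to 0.994 for those 10 pairs and 0.592 to 0.801 for the pairs with Mapk12, but those values follow from the group differences for which the genes were picked. All values of 1 array share its RNA and its hybridisation.

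Fgl2 and Art3 were the 1 pair of 15 that passed the test, by exact two-sided permutation within groups. Their r was 0.982 and Spearman's rho 0.988, each with p = 0.00116 by exact permutation, the smallest that 864 arrangements can give, and an adjusted p of 0.0174. Without floxed 2 and delta 4, the arrays farthest from the median, r was 0.927. For that value deviations were still taken from the means of the full groups. Group means were taken anew for values without delta 4 alone. Without delta 4 alone r was 0.952 with an exact p of 0.00463 and an adjusted p of 0.0694, so the call ended with that array left out. Fgl2 with Trabd2b (r = 0.938, rho = 0.685) and Trabd2b with Art3 (r = 0.906, rho = 0.648) each had an adjusted p of 0.139 for r and 0.176 for rho by exact permutation.

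Rcn3 had within-group correlations with Fgl2, Trabd2b and Art3 whose sign turned once delta 4 was out. Its within-group r was 0.461 with Fgl2, 0.575 with Trabd2b and 0.491 with Art3 over 10 arrays, none past the test (adjusted p = 0.451 by exact permutation). Without delta 4, with group means taken anew, these were -0.291, -0.157 and -0.117 (adjusted p = 0.806 each by exact permutation). Such values cannot separate a weak relation from none. Without delta 2 and delta 4 the values were -0.722, -0.533 and -0.749. Those deviations were still from the means of the full groups, so the 2 sets are unlike measures. The closest partner of Rcn3 within groups was Glt28d2, at 0.786 over 10 arrays and 0.568 without delta 4 (adjusted p = 0.178 and 0.806 by exact permutation). Over all 15 pairs, 0 passed without delta 4.

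**Figure D3:**
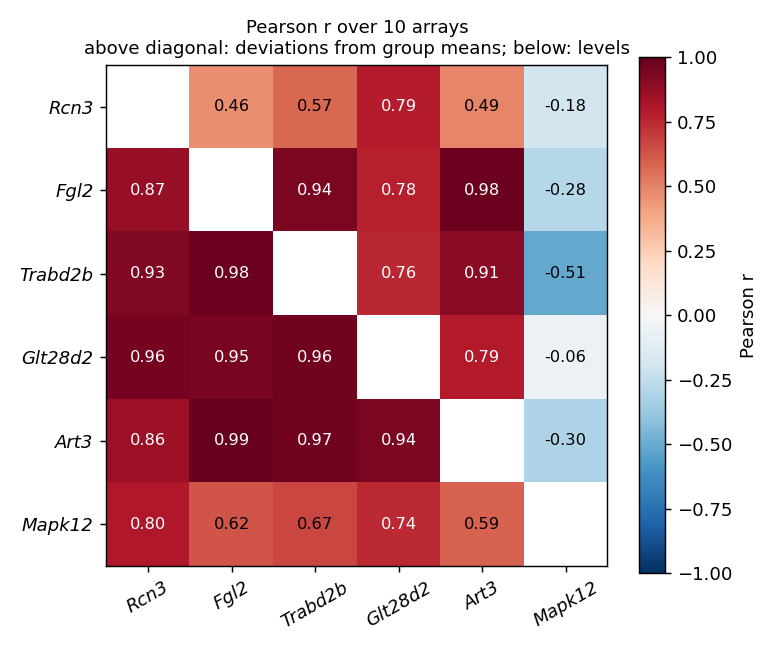
Pearson's r for each pair of the 6 genes over 10 arrays, from deviations from group means above the diagonal and from log2 levels below it. Fgl2, Trabd2b and Art3 form the darkest block above the diagonal (0.91 to 0.98), and the 5 cells of Mapk12 there lie below 0.

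Over the 10 arrays, the genes nearest in pattern to each of the 6 were taken as the 3 with the highest r of log2 level, as a description. For Fgl2 they were Nt5e (0.990), Cyth4 (0.986) and Lilrb4a (0.982), and for Trabd2b Tbx21 (0.994), Tmem106a (0.985) and Laptm4b (0.984). Art3 was nearest to Fcer1g (0.986), Nt5e (0.979) and Clic4 (0.979). Nt5e encodes the ecto-enzyme CD73, Tbx21 the transcription factor T-bet, and Fcer1g the signalling chain shared by several Fc receptors.

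Rcn3 and Glt28d2 shared their 2 nearest genes, Fam160a1 (0.966 and 0.990) and Smarca2 (0.965 and 0.972), followed by Lrrk1 (0.955) for Rcn3 and Prkar2a (0.972) for Glt28d2. Mapk12 was nearest to Tha1 (0.947), Stim2 (0.915) and Eif4a2 (0.911), genes named for no other member. Tbx21 had log2 levels of 9.36, 9.70 and 9.12 on floxed arrays, 8.53, 8.31, 8.40 and 9.82 on delta arrays and 7.24, 7.39 and 7.21 on wild-type arrays, the same high delta 4 as in Trabd2b.

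Genes that neighbour the 6 on the chromosome were tested with limma, since a shared change along a stretch of DNA would appear there. Of 60 neighbours, the 5 nearest measured genes on each side, 1 passed in floxed against wild-type arrays (0.552% of all genes did so) with 6 at an unadjusted p under 0.05 (12.8% of all genes), and 0 in delta against wild-type arrays (0.0752% of all genes) with 4 unadjusted (7.89% of all genes). Their log2 differences ran from -0.46 to 0.86 for floxed and from -0.26 to 0.63 for delta arrays. The gene that passed was Fam160a1, 84.5 kb from Glt28d2 on chromosome 3.

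Fam160a1 had log2 levels of 7.81, 7.86 and 8.09 on floxed arrays, 7.64, 7.43, 7.69 and 8.0 on delta arrays, and 6.92, 7.15 and 7.10 on wild-type arrays. Its floxed minus wild-type difference was 0.86 (SE 0.13, limma adjusted p = 0.0171), and delta minus wild-type 0.63 (SE 0.12, limma adjusted p = 0.141). It kept its direction in 20 of 20 alternatives and passed in 14, and did not pass without floxed 2 (limma adjusted p = 0.053), floxed 3 (0.0756), wild-type 1 (0.0673) or wild-type 2 (0.0651), nor with every probe set as its own feature (0.0764) or sex pattern as a covariate (0.434). The other 9 neighbours of Glt28d2 did not pass, Tmem154 among them at 0.51 in floxed (SE 0.13, limma adjusted p = 0.115) and 0.10 in delta arrays (SE 0.12, limma adjusted p = 0.919).

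Overlapping and adjacent genes of the other members gave no call. Fgl2 lies inside Ccdc146, which differed by 0.01 in floxed (limma adjusted p = 0.986) and -0.04 in delta arrays (limma adjusted p = 0.944) against wild-type. Art3 spans the chemokine genes Cxcl10 and Cxcl11, at 0.45 (SE 0.21, limma adjusted p = 0.395) and 0.12 (limma adjusted p = 0.787) in floxed arrays. Mapk11, the p38 beta kinase gene whose span lies 904 bases from that of Mapk12, differed by 0.03 (limma adjusted p = 0.953), and Gsap near Fgl2 by 0.61 (SE 0.14, limma adjusted p = 0.0758).

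Relatives and partners of the 6 genes were then counted in 10 lists of 197 genes, 184 of them measured. In floxed against wild-type arrays 0 were higher and 1 was lower (0.543% against 0.552% of all genes, 26 at an unadjusted p under 0.05, against 12.8% of all genes), with a median log2 difference of -0.02 beside -0.02 over all genes. In delta against wild-type arrays 0 passed (13 unadjusted, against 7.89% of all genes), and in delta against floxed arrays 0 passed (14 unadjusted, against 6.42%), beside 0.0752% and 0.00502% of all genes past the adjusted threshold. The share past the adjusted threshold in floxed against wild-type arrays was near that of all genes, and nothing is read from it.

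By role, the 10 calcium-binding and folding proteins of the endoplasmic reticulum had a median of 0.16 in floxed against wild-type arrays. Hspa5, the main chaperone there, differed by 0.31 (SE 0.07, limma adjusted p = 0.0963), and Nucb1 by 0.20 (SE 0.06, limma adjusted p = 0.172). The relatives of Rcn3 in its own family, Rcn1 and Rcn2, differed by 0.20 (SE 0.12, limma adjusted p = 0.524) and 0.02 (SE 0.08, limma adjusted p = 0.942).

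For Fgl2, 19 other genes with a fibrinogen domain had a median of -0.06 and 7 receptor and coagulation genes a median of 0.06. Fcgr2b, the inhibitory Fc receptor that binds soluble Fgl2, differed by 0.40 in floxed (SE 0.12, limma adjusted p = 0.182) and 0.41 in delta arrays (SE 0.11, limma adjusted p = 0.323), and Fcgr3 by 0.06 in floxed arrays (SE 0.07, limma adjusted p = 0.773). F2r, a thrombin receptor, differed by 0.21 in floxed arrays (SE 0.12, limma adjusted p = 0.503). Of the fibrinogen domain genes, Angptl4 differed by -0.25 (SE 0.08, limma adjusted p = 0.203), Tnr by -0.21 (SE 0.09, limma adjusted p = 0.358) and Fgl1, which shares the family name, by -0.06 (SE 0.10, limma adjusted p = 0.845).

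For Trabd2b, 45 Wnt ligands, receptors and extracellular regulators had a median of -0.05, and 25 intracellular genes and targets of the pathway a median of -0.01. Fzd6, a Wnt receptor, differed by 0.74 in floxed arrays (SE 0.20, limma adjusted p = 0.132), and the secreted Wnt inhibitor Wif1 by -0.26 (SE 0.08, limma adjusted p = 0.216). Lef1, a transcription factor of the pathway, differed by -0.54 in floxed (SE 0.12, limma adjusted p = 0.0649) and -0.61 in delta arrays (SE 0.11, limma adjusted p = 0.0968). Lgr5, a receptor that amplifies Wnt signals and a target of the pathway, differed by -0.49 in floxed (SE 0.10, limma adjusted p = 0.052) and -0.29 in delta arrays (SE 0.09, limma adjusted p = 0.379). Axin2, a common target, differed by 0.04 (SE 0.09, limma adjusted p = 0.904). Rnf43, of the same list as these 3 genes, differed by 0.52 in floxed and 0.36 in delta arrays, the highest values of that list. In floxed arrays 1 gene of the list was higher and 4 were lower at an unadjusted limma p under 0.05, against 12.8% of all genes.

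For Glt28d2, 22 genes that assemble the lipid-linked glycan had a median of 0.00 and 11 oligosaccharyltransferase genes, which transfer that glycan to proteins, a median of 0.08. Dpagt1, which starts the precursor, differed by 0.17 in floxed arrays (SE 0.07, limma adjusted p = 0.336), and Ddost, a subunit of the transferase, by 0.26 (SE 0.07, limma adjusted p = 0.111). Srd5a3, which makes dolichol, differed by -0.21 in floxed (SE 0.08, limma adjusted p = 0.278) and -0.33 in delta arrays (SE 0.07, limma adjusted p = 0.174), and Rpn2, another subunit of the transferase, by 0.23 in floxed arrays (SE 0.07, limma adjusted p = 0.187). Alg14, the membrane partner of Alg13, differed by 0.10 (SE 0.07, limma adjusted p = 0.591).

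For Art3, 8 measured genes of ADP-ribosylation and extracellular NAD had a median of -0.02, and Art4 and Art5 differed by -0.02 (limma adjusted p = 0.931) and 0.02 (limma adjusted p = 0.966) in floxed arrays. Bst1, an ecto-enzyme that consumes NAD, was the gene of the lists that passed. It had log2 levels of 6.23, 6.04 and 6.14 on floxed arrays, 6.46, 6.31, 6.16 and 6.36 on delta arrays, and 6.49, 6.79 and 6.67 on wild-type arrays, a floxed minus wild-type difference of -0.51 (SE 0.10, limma adjusted p = 0.0453). It kept its direction in 19 of 19 alternatives and passed in 8: it did not pass without floxed 1, 2 or 3, delta 2, or wild-type 1, 2 or 3 (limma adjusted p of 0.0567 to 0.16), and the highest adjusted p, 0.365, came with sex pattern as a covariate.

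For Mapk12, the 18 p38 kinases and activators had a median of -0.01 and the 19 substrates and phosphatases a median of 0.04. The other 3 p38 kinases stayed near 0 in floxed arrays: Mapk11 at 0.03, Mapk13 at -0.02 and Mapk14 at -0.02 (limma adjusted p of 0.953, 0.937 and 0.933). Their upstream kinases Map2k3 and Map2k6 differed by 0.14 (SE 0.07, limma adjusted p = 0.4) and -0.03 (SE 0.12, limma adjusted p = 0.95). Gadd45g, a stress-induced activator of the pathway, differed by 0.47 (SE 0.09, limma adjusted p = 0.0558) and Gadd45b by 0.51 (SE 0.14, limma adjusted p = 0.134). Dusp1, a phosphatase that switches off MAP kinases, differed by 0.75 in floxed (SE 0.27, limma adjusted p = 0.269) and 0.81 in delta arrays (SE 0.25, limma adjusted p = 0.387), values above those of Mapk12 itself. Rps6ka5, a kinase activated by p38, differed by -0.35 in floxed arrays (SE 0.08, limma adjusted p = 0.096).

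**Figure D4:**
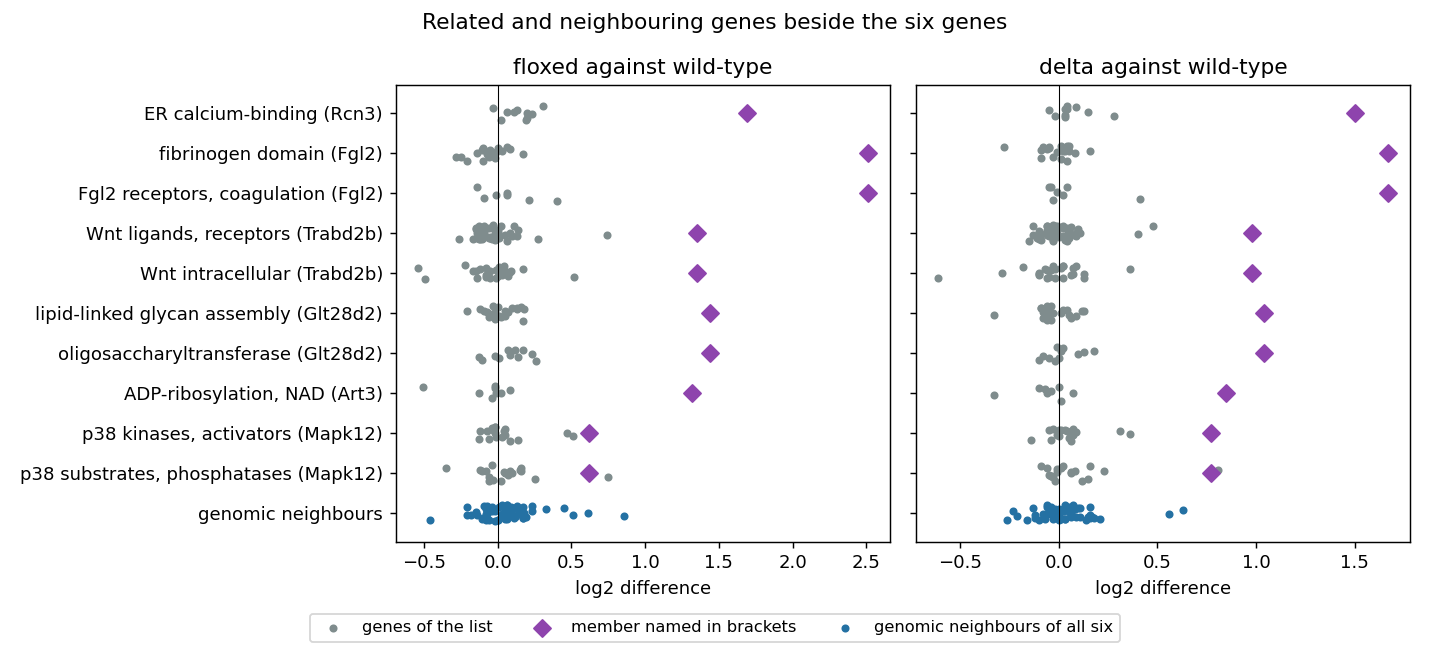
Log2 difference against wild-type of each measured gene in the 10 lists and of the 60 genomic neighbours, for floxed arrays on the left and delta arrays on the right; diamonds are the member to which each list belongs. Most related and neighbouring genes lie near 0, and in both panels each diamond lies right of all genes of its list except that of Mapk12 beside its substrates and phosphatases, where Dusp1 lies further right.

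Because a sort can retain other cells, markers of other cell types were read beside the 6 genes. Fgl2 in particular is known from macrophages. The mean log2 level of 14 measured macrophage and monocyte markers (of 15) was 7.17 to 7.31 on floxed, 6.97 to 7.34 on delta and 6.90 to 6.97 on wild-type arrays, with delta 4 the highest of all, and their summed intensity was 2881 to 3265, 2256 to 3728 and 2005 to 2205. For 11 dendritic cell markers the means were 6.79 to 6.91 on floxed, 6.53 to 6.84 on delta and 6.53 to 6.63 on wild-type arrays. The medians of the log2 difference, floxed minus wild-type, were 0.01 over the 14 macrophage and monocyte markers and -0.04 over the 11 dendritic cell markers. In each list 3 were higher and 1 was lower at an unadjusted limma p under 0.05, against 12.8% of all genes in either direction. Of the 14 markers 7 were dimmer than the median gene, and of the 11 markers 8, so dim genes weigh on these medians. Among the largest differences were Itgax at 1.92 (SE 0.50, limma adjusted p = 0.121), Adgre1 at 1.91 (SE 0.43, limma adjusted p = 0.0809) and Itgam at 1.12 (SE 0.41, limma adjusted p = 0.276). In a bulk sort, transcripts of these markers in B cells and in other cells cannot be told apart. The part of other cells in the result was not tested.

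Single markers of these lists did not move alike. Adgre1 (F4/80) had log2 levels of 9.20, 9.83 and 9.11 on floxed arrays, 8.69, 8.06, 8.38 and 10.15 on delta arrays and 7.50, 7.81 and 7.09 on wild-type arrays, and Itgax (CD11c) had 8.35, 9.22 and 8.19, then 7.36, 7.06, 7.29 and 9.39, then 6.84, 6.74 and 6.44 on the arrays in the same order. Mpeg1, a pore-forming protein of phagocytes, had 9.0, 9.35 and 9.09 on floxed arrays, 8.5, 7.94, 8.48 and 9.06 on delta arrays and 7.86, 7.95 and 8.03 on wild-type arrays, and was the 1 gene of the 14 that passed in floxed against wild-type arrays (1.20, SE 0.21, limma adjusted p = 0.0351). It did not pass without floxed 1, 2 or 3, delta 3, or wild-type 1, 2 or 3 (limma adjusted p of 0.0594 to 0.126). These 3 had delta 4 as their highest delta array, as Rcn3, Fgl2, Trabd2b, Glt28d2, Art3 and 29.3% of all genes did. Some other markers of macrophages and monocytes did not follow: Csf1r differed by -0.21 (limma adjusted p = 0.488), Cd14 by -0.26 (limma adjusted p = 0.305) and Fcgr1 by -0.03 (limma adjusted p = 0.882) in floxed against wild-type arrays. Csf1r, Cd14, Fcgr1, Itgam, Ccr2, Cd163 and Marco were dimmer than the median gene. A small number of such cells might thus not show in Csf1r, Cd14 or Fcgr1. Lyz2 averaged 8.04 on floxed and 7.48 on wild-type arrays, Cd68 8.91 and 8.84, and Cx3cr1 7.25 and 7.39. Delta 4 was the highest delta array for Cd68 (9.12) and Cx3cr1 (7.27), but for Lyz2 it read 8.0 against 8.12 on delta 3.

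The other marker lists were read in the same way. The mean of 14 T cell markers was 6.78 to 7.42 on floxed, 6.63 to 6.97 on delta and 6.62 to 6.89 on wild-type arrays, and that of 11 NK cell markers 5.97 to 6.4, 5.69 to 6.11 and 5.71 to 5.88. Over the T cell markers the median log2 difference, floxed minus wild-type, was 0.28. Of them 6 were higher and 0 lower at an unadjusted limma p under 0.05 (12.8% of all genes in either direction), and 0 passed after adjustment. Foxp3, which marks the regulatory T cells that secrete Fgl2, differed by -0.09 in floxed arrays (limma adjusted p = 0.583). It was dimmer than the median gene and read 6.88 to 7.13 over all arrays, so a small number of such cells might not show. Plasma cell markers (9) averaged 8.82 to 8.88 on floxed, 8.68 to 8.70 on delta and 8.52 to 8.68 on wild-type arrays, and erythroid markers (9 of 12) 7.85 to 8.19, 7.28 to 7.78 and 7.45 to 7.74. Neutrophil markers (9) averaged 5.91 to 6.60, 5.92 to 6.24 and 5.91 to 5.99, and markers of endothelium and stroma (10) 7.26 to 7.37, 7.27 to 7.32 and 7.33 to 7.36. By these means delta 4 was the highest delta array for the T cell, NK cell, dendritic, neutrophil and endothelium and stroma lists. For the B cell and erythroid lists it was not, and delta arrays tied at 8.70 for the plasma cell list. Single genes past the threshold in these lists and the B cell list were the plasma cell genes Jchain (1.64, SE 0.17, limma adjusted p = 0.00383) and Sdc1 (-0.51, SE 0.09, limma adjusted p = 0.045) in floxed against wild-type arrays, and the B cell receptor gene Cd79a (-0.48, SE 0.06, limma adjusted p = 0.0427) in delta against wild-type arrays. Their part in the levels of the 6 genes was not tested.

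**Figure D5:**
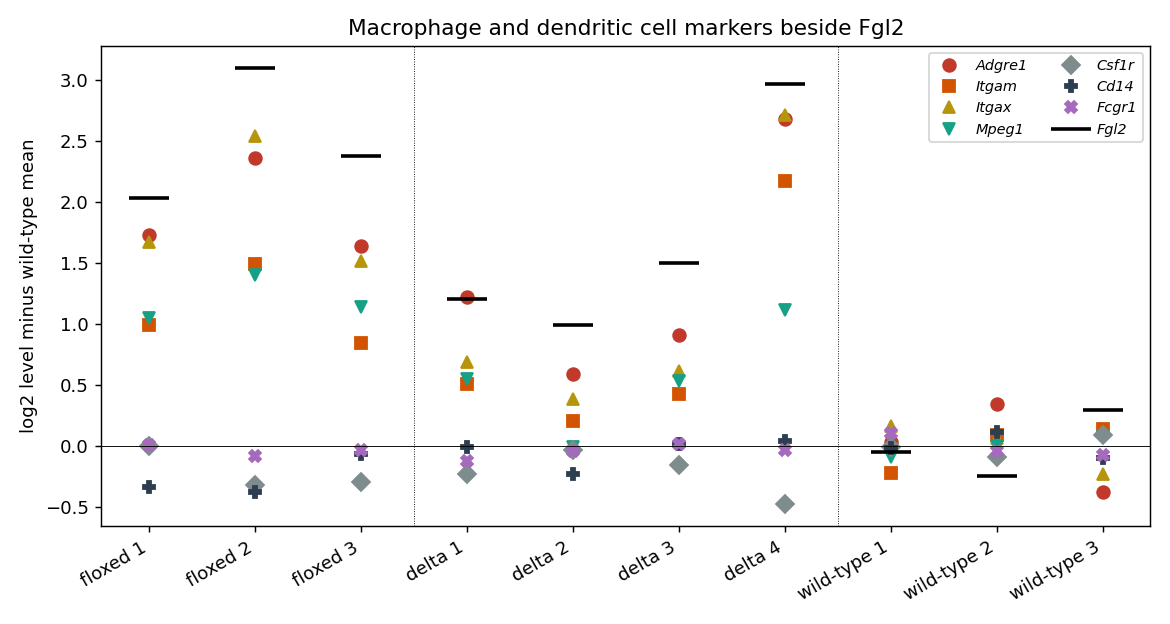
Log2 level minus the wild-type mean on each array for 7 macrophage and dendritic cell markers (points) and Fgl2 (bars). Adgre1, Itgax, Itgam and Mpeg1 are highest on floxed arrays and delta 4, as Fgl2 is, while Csf1r, Cd14 and Fcgr1 lie near or below 0 on every floxed array.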

How the data were processed

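The 10 arrays were mapped to 3 floxed, 4 delta and 3 wild-type samples through their titles. The authors deposited 1 intensity for each of 34760 probe sets, made with RMA per the submitters' processing notes; the version and the annotation build are not stated there. The deposited values lay between 4.46 and 26808, a linear scale, so log2 was taken with no pseudocount. RMA summarises many probes into 1 value and draws array distributions together, which compresses small differences of dim probe sets. Of the probe sets, 21640 carried 1 symbol in the platform annotation, 1321 several and 11799 none. Only the first kind was used, with the brightest probe set for the 954 genes that had several, which left 19937 genes; 21553 of the single-symbol probe sets matched the RefSeq gene table by gene ID.

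Differences, standard errors and adjusted p-values came from limma 3.58.1 in R 4.3.3 (lmFit and eBayes over all 10 arrays, 7 residual and 4.32 prior degrees of freedom, two-sided, Benjamini-Hochberg over all genes, threshold 0.05), checked on simulated data. Correlations within groups used exact permutation, with Benjamini-Hochberg adjustment over 15 pairs. Python 3.11.15 with pandas 2.3.3, numpy 2.4.6 and matplotlib 3.10.9 made the summaries and plots. Coordinates and promoters are RefSeq's for GRCm38.p6.

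The members, gene lists and tests were chosen with earlier results of these data known. The named genes are the 6 members, the 3 genes nearest in pattern to each (predicted genes left out), up to 4 genes of a list past the threshold or otherwise the 2 with the smallest p (those of floxed against wild-type arrays are given in the text), neighbours past the threshold, and Bcl6, Xist and Eif2s3y as checks of the labels. Rcn1, Rcn2, Fgl1, Axin2, Alg13, Alg14, Art4, Art5, Foxp3, Gsap, Tmem154, Ccdc146, Cxcl10, Cxcl11, the p38 kinases and their activators, Fcgr3 and the single cell type markers were named for their role or position, outside that rule. Rnf43 was named for the highest value of its list, also outside that rule. The sex pattern compares Xist with Eif2s3y, Kdm5d and Uty. The number of arrays limits the precision. Replicate numbers did not pair the arrays: deviations from group means correlated at -0.083 to 0.121 between arrays of the same number.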

Additional observations from a re-analysis of the deposited data

Results flagged for a closer look

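The delta 4 array stood apart from the other 3 delta arrays in Trabd2b. Its log2 level by the brighter probe set was 8.79, against 8.06, 7.93 and 8.04 on delta 1 to 3, and its gap to the nearest of them was 0.85 of the whole range, above Dixon's 95% critical value for 4 arrays. By the other probe set of the gene the gap was 0.788 of the range, and for Fgl2 0.745, both under that value. Chance marks about 1 in 20 groups in this way, and 7 probe sets in delta arrays were examined.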

How the results depend on the processing

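The 6 genes kept the sign of their differences from wild-type and of delta from floxed arrays in every alternative that could be computed, 19 for Art3 and Glt28d2, which are dimmer than the median gene, and 20 for the others. When arrays were left out, the order for which the genes were picked already fixed the sign against wild-type. Nothing is read from its being kept. Trabd2b moved to 1.92 in floxed against wild-type and to -0.74 in delta against floxed arrays with its other probe set. Counts of called genes were less stable; the values are for floxed against wild-type (110 as reported), delta against wild-type (15), delta against floxed (1) and delta 1 against delta 2 to 4 (7), in that order where given. Median centring gave 178 and 3. Every probe set as its own feature, 34760 in place of 19937 genes, gave 18 and 1. Trend and robust priors gave 9 for delta against wild-type and 3 for delta against floxed, array weights gave 208 for floxed against wild-type, and fits on only the groups compared gave 193, 0 and 2. Sex pattern as a covariate gave 2 and 3. The genes brighter than the median gene gave 1 for delta 1 against the rest. Leaving out each array in turn gave 18 to 240, 0 to 23, 1 to 10 and 5 to 11. Replicate numbers did not pair the arrays, and the replicate block gave 188, 6 and 2. The cause of these moves was not tested.

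For delta 1 against delta 2 to 4, leaving out each array in turn gave -0.08 to 0.41 for Rcn3, -1.04 to -0.05 for Fgl2, -0.36 to 0.07 for Trabd2b, -0.27 to 0.17 for Glt28d2, -0.56 to 0.03 for Art3 and -0.06 to 0.1 for Mapk12; the sign of Fgl2 held in each, and the sign turned without delta 2 for Rcn3 and without delta 4 for the others, and no gene passed either way. Within-group correlations turned sign without delta 4 for Rcn3 with Fgl2 (-0.291), Trabd2b (-0.157), Art3 (-0.117) and Mapk12 (0.188), and for Mapk12 with Fgl2 (0.221), Glt28d2 (0.508) and Art3 (0.115). Without the 2 arrays farthest from the median the same pairs had -0.722, -0.533, -0.749, 0.197, 0.48, 0.124 and 0.028. There the deviations were still from the means of the full groups, while group means were taken anew for values without delta 4. Leaving out delta 4 was chosen after seeing the data. Mpeg1 passed in 10 of 20 alternatives.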
